A study of Mus musculus with 15 samples.

Results

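The mitochondrial genome of the mouse carries 37 genes, and all of them were taken, by the chromosome given in the deposited tables, out of 78317 genes listed there. They are 13 protein genes, 2 rRNA genes and 22 tRNA genes. RNA-seq counts were available for 15 libraries of ventricular heart from mouse embryos at embryonic day 11.5, from C57BL/6 mice and under a single batch label. The floxed allele of each line has loxP sites in Atf4, which codes for a stress-response transcription factor. In the CDS line the sites flank exons 2 and 3 and the polyadenylation signal is kept, and in the PAS line they flank the polyadenylation signal itself. The knockouts, 4 libraries in each line, also carry Xmlc2-Cre, which deletes in cardiomyocytes, so the other cells of the ventricle keep the gene intact. The controls number 4 libraries for the CDS line and 3 for the PAS line. They are labelled only as controls, and whether they carry the floxed alleles or Cre is not given in the sources used here. The sources do not say whether a library is 1 embryo or a pool.

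The mitochondrial genome is transcribed from both strands as long precursors. In the usual account of tRNA punctuation, tRNAs lying between the other genes are cut out and so release the mRNAs and rRNAs. Its protein genes code for core subunits of respiratory complexes I, III and IV and of the ATP synthase, complex V, while the other subunits, and all of complex II, are coded in the nucleus. The developing heart raises its number of mitochondria and its use of oxidative phosphorylation as it matures. In a bulk sample, more cells rich in mitochondria and more mitochondrial RNA per cell cannot be told apart.

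The tissue, the targeted gene and the library type were checked first. Tnnt2 and Actc1, components of the cardiac thin filament, stood at 3241 to 4384 and 8926 to 11330 CPM, which is counts scaled to library size and TMM factors and is used throughout for levels. The 8 neuronal markers together stood at 33.7 to 53.0 CPM, although the extraction protocol in the labels names cortical neurons. Atf4 was 39.6 to 48.1 CPM in CDS knockouts and 112 to 116 CPM in their controls. In the PAS line Atf4 was 259 to 304 CPM in knockouts and 92.2 to 100.1 CPM in controls, so the libraries labelled PAS knockout held more Atf4 counts than their controls. The labels name both a poly(A)-selecting kit and rRNA depletion. The 70 replication-dependent histone genes, whose messages lack a poly(A) tail, summed to 37.6 to 52.2 CPM. Totals ran from 22623499 to 46472141 counts, and every CDS library, with at least 30376847, was deeper than every PAS library, with at most 29315724.

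A stretch of the mitochondrial genome has to be set apart before its genes are read. Bases M:6390-11042 (GRCm39, 4653 bases) run collinear with the minus strand of chromosome 1, at 1:24650616-24655278 (4663 bases). The stretch was set by nearly identical annotated copies of mt-Co1, mt-Co2, mt-Atp6, mt-Co3, mt-Nd3, mt-Nd4l and mt-Nd4. Near identity was not shown for mt-Atp8 beyond its overlap with mt-Atp6, for the tRNA genes inside or for the bases between genes. The stretch spans 30.2% of the mitochondrial genome up to its last annotated base. It holds 11 genes whole, of which 6 code for proteins (mt-Co2, mt-Atp8, mt-Atp6, mt-Co3, mt-Nd3 and mt-Nd4l) and 5 for tRNAs. It also holds the last 483 bases of mt-Co1 and the first 876 of mt-Nd4, and the other 24 genes lie outside. The sequences printed next come from GENCODE transcripts matched by identifier, with coordinates from the deposited tables (GRCm39).

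The start of mt-Co3 (M:8607-8706, plus strand), a subunit of cytochrome c oxidase, and of its copy Gm28437 (1:24652953-24653052, minus strand) are shown because their 100 bases are the same. The copies matched all 783 aligned bases.
mt-Co3: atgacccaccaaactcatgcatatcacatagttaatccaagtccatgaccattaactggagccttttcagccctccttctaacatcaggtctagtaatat
Gm28437: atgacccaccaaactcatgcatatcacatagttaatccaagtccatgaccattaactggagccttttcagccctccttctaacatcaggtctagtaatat

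The start of mt-Nd3 (M:9459-9511, plus strand), a complex I subunit, and of its copy Gm28438 (1:24652148-24652200, minus strand) hold the only mismatch in 345 aligned bases, in capitals.
mt-Nd3: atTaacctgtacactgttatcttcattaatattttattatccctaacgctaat
Gm28438: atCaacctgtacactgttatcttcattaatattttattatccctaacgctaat

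For contrast, 100 bases of mt-Cytb (M:14245-14344, plus strand), the cytochrome b subunit of complex III, are set against Gm11410 (4:79922326-79922425, plus strand), a diverged copy outside the stretch. The 7 mismatches are in capitals, and over 1142 aligned bases the identity was 92.9%.
mt-Cytb: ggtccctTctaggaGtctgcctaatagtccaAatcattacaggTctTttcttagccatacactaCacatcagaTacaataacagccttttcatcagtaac
Gm11410: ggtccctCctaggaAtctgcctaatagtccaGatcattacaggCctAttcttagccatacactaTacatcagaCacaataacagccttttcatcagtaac

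The tRNA genes mt-Tp, for proline (M:15356-15422, minus strand), and mt-Tn, for asparagine (M:5089-5159, minus strand), had the most counts of their class pooled over the 15 libraries, although in both PAS groups the mean of mt-Te, for glutamate, was above that of mt-Tn. mt-Tk, for lysine (M:7700-7764, plus strand), lies inside the stretch and had none.
mt-Tp: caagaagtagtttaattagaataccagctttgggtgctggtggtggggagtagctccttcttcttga
mt-Tn: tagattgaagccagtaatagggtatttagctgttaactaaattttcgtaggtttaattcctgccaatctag
mt-Tk: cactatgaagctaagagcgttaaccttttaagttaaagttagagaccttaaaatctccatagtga

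Counts fell by orders of magnitude at the edges of the copied stretch. The 11 genes inside it had 0 to 77 counts per library each. Together they made up 0.0102% to 0.0136% of all mitochondrial counts in the CDS libraries and 0.0158% to 0.0210% in the PAS libraries. Outside it, mt-Cytb had 154290 to 337155 counts and mt-Nd1, a complex I subunit, had 136662 to 289786. mt-Co1, the catalytic subunit of cytochrome c oxidase, crosses the edge and had 296436 to 643907. The copies on chromosome 1 had few counts as well: all annotated genes of that stretch together had 281 to 717 counts per library, and Gm28438 had 0 in every library. The count headers give no option to keep fragments that map to several places, and the part of that setting in these low counts was not tested. Levels of mt-Co2, mt-Atp8, mt-Atp6, mt-Co3, mt-Nd3 and mt-Nd4l are therefore counts of the few fragments assigned to them, and no level of complex V can be read here.

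**Figure D1:**
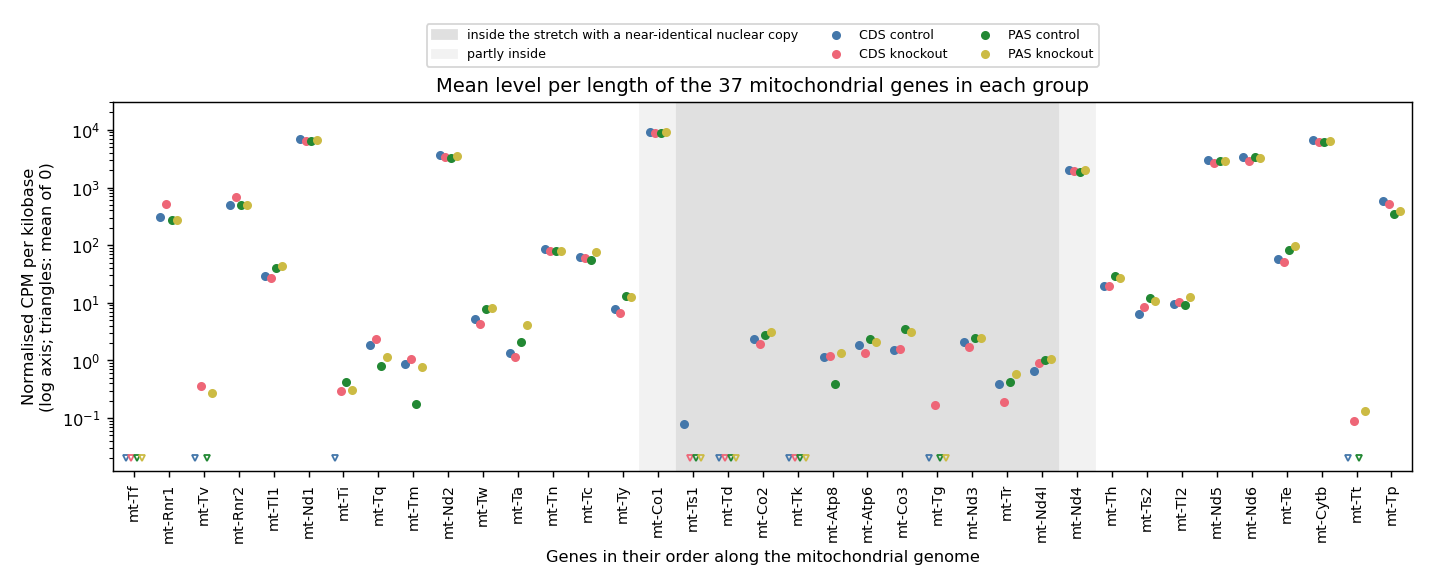
Mean level of each of the 37 mitochondrial genes in genome order, in normalised CPM per kilobase on a log axis, with 1 point per group and triangles for a mean of 0. Genes inside the shaded stretch lie orders of magnitude under the protein genes on either side, in every group.

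Per length, the protein genes outside or partly outside the stretch were among the most abundant genes of the ventricle. In CDS controls mt-Co1 stood at 9320 ± 714 CPM per kilobase (SD, n = 4), rank 1 of 20269 genes tested, and at 13560 ± 1038 if only its 1062 bases outside the stretch are counted as length. mt-Nd1 followed at 6828 ± 327 CPM per kilobase and mt-Cytb at 6689 ± 493, whose SDs overlap. The complex I genes mt-Nd2 (3687 ± 198), mt-Nd6 (3315 ± 144) and mt-Nd5 (2975 ± 208) came next, and mt-Nd4 stood at 2050 ± 128, or 5627 ± 350 over its 502 bases outside the stretch. mt-Co1 was first either way, while the place of mt-Nd4 among these genes depends on how its copied bases are treated. The bases of mt-Co1 outside the stretch also have a copy. Gm13340, on chromosome 2, matched all 1545 bases of mt-Co1 at 97.6% identity and had 212 to 703 counts per library. The rRNA genes stood lower, mt-Rnr2 at 489 ± 38.9 and mt-Rnr1 at 306 ± 33.0 CPM per kilobase. mt-Tp, at 582 ± 53.1, was above both rRNA genes per length in the CDS controls. In the other groups its mean was under that of mt-Rnr2, at 522 against 697 CPM per kilobase in CDS knockouts, 397 against 497 in PAS knockouts and 353 against 505 in PAS controls. mt-Tp spans only 67 bases, and the part of longer RNA in its counts was not tested. The labels name both a poly(A)-selecting kit and rRNA depletion, so the order of the RNA classes in the tissue cannot be read here.

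The mitochondrial genes took about the same share of counts in every group. Their share was 4.39%, 3.88%, 4.20% and 3.95% in the CDS knockouts and 4.38%, 4.67%, 4.12% and 4.17% in the CDS controls. It was 3.94%, 4.61%, 3.96% and 4.45% in the PAS knockouts and 3.59%, 3.89% and 4.71% in the PAS controls. The groups overlapped in both lines. The means were 4.10% ± 0.234 and 4.33% ± 0.250 in CDS knockouts and controls (SD, n = 4 each), a difference of -0.231 percentage points. In the PAS line they were 4.24% ± 0.342 (n = 4) and 4.07% ± 0.580 (n = 3), a difference of 0.173 percentage points. The CDS difference was -0.326 percentage points without CDS knockout 1 and -0.120 without CDS control 2, the extremes as 1 library at a time was left out. The PAS difference was -0.0631 without PAS control 1 and 0.497 without PAS control 3, and both differences in the lines were under the SD of their controls.

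By class, protein genes held 96.0% to 97.4% of mitochondrial counts on average in each group and tRNA genes 0.115% to 0.135%. The rRNA genes held 3.84% ± 2.08 in CDS knockouts and 2.45% ± 0.121 in CDS controls. By library they held 2.957%, 2.57%, 6.955% and 2.871% in CDS knockouts and 2.286%, 2.516%, 2.43% and 2.561% in CDS controls. Every CDS knockout was thus above every CDS control on this scale, the nearest by a narrow margin. In the PAS line they held 2.47% ± 0.147 in knockouts and 2.66% ± 0.415 in controls. By complex, the 7 complex I genes held 45.4% to 46.8% of mitochondrial counts in the group means, the 3 complex IV genes 33.1% to 33.6% and mt-Cytb 17.2% to 17.6%. The complex IV share is almost all mt-Co1, with 33.2% of mitochondrial counts pooled over the libraries. mt-Co2 and mt-Co3, inside the copied stretch, added few counts to it, and mt-Nd3 and mt-Nd4l likewise added few to the complex I share. By strand, the 9 genes of the minus strand, mt-Nd6 and 8 tRNAs, held 3.68% ± 0.313 of mitochondrial counts in CDS knockouts and 4.08% ± 0.142 in CDS controls. In the PAS line they held 4.15% ± 0.444 in knockouts and 4.35% ± 0.300 in controls. No strand option is named in the count headers, so RNA of the opposite strand was not separated along any gene. This includes places where genes of opposite strands overlap, such as the 14 bases shared by mt-Nd5 and mt-Nd6. Values by strand therefore follow the annotated strand of the genes, and the strand of the counted RNA cannot be read here.

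**Figure D2:**
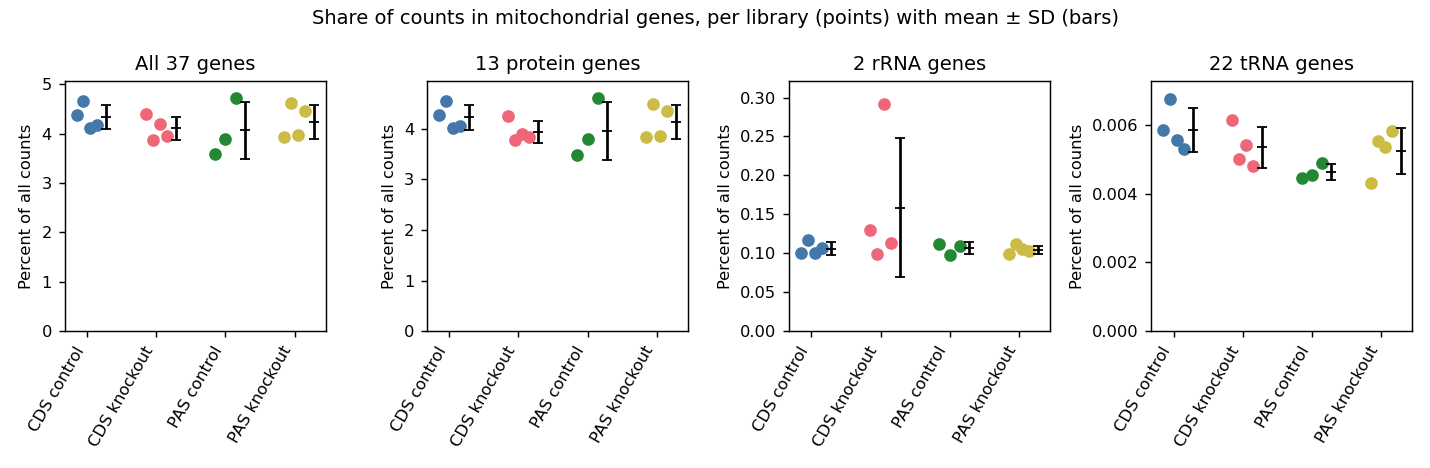
Percent of all counts in the mitochondrial genes and in their 3 classes, with 1 point per library and bars for the group mean ± SD. The groups overlap for all 37 genes, and 1 CDS knockout stands at 0.292% for the rRNA genes, above every other library.

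The filter on low counts kept 26 of the 37 genes: all 13 protein genes, both rRNA genes and 11 tRNA genes. Of the 11 tRNA genes it removed, 5 lie inside the stretch and 6 outside, and mt-Tf, mt-Td and mt-Tk had 0 counts in every library. Genes were compared with edgeR's quasi-likelihood test fitted over all 15 libraries, with Benjamini-Hochberg adjustment over 20269 genes.

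Deletion of the Atf4 coding exons gave no call among the mitochondrial genes. By edgeR's quasi-likelihood test 0 of 26 passed an adjusted p of 0.05, against 0.0543% of all genes tested (0.0444% lower), and 2 of 26 had an unadjusted p under 0.05, against 2.62% of all genes. DESeq2 and limma-voom also called 0. All 7 protein genes outside or partly outside the stretch had negative estimates, from -0.23 to -0.08 on the log2 scale with SEs of 0.06 to 0.15, and the median over all genes tested was -0.00. Each of the 7 changes was under 2 SEs. CDS knockout 1 was the highest knockout for all 7 genes, and CDS control 2 the highest control for 6. The 7 estimates were therefore not independent of each other.

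For complex I, mt-Nd1 stood at 6388, 5928, 6230 and 5879 CPM in CDS knockouts and at 6877, 6721, 6290 and 6249 CPM in controls. The log2 change was -0.10 ± 0.07 (SE), with a 95% interval from -0.25 to 0.05. The groups overlapped. For complex III, mt-Cytb stood at 7691, 6863, 7117 and 6997 CPM in knockouts and at 7746, 8412, 7181 and 7270 CPM in controls, a log2 change of -0.09 ± 0.09 with an interval from -0.29 to 0.10. For complex IV, mt-Co1 stood at 14520, 12930, 13380 and 13600 CPM in knockouts and at 14490, 15890, 13330 and 13890 CPM in controls. Its log2 change was -0.08 ± 0.06, with an interval from -0.22 to 0.05, and it ran from -0.12 without CDS control 3 to -0.03 without CDS control 2. Knockouts and controls overlapped for both genes.

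mt-Nd6 is the protein gene on the strand opposite to the other 12 and codes for a complex I subunit. It stood at 1753, 1332, 1469 and 1316 CPM in CDS knockouts and at 1677, 1829, 1666 and 1709 CPM in controls. Of the knockouts 3 were under every control and 1 was above 3 of them. The log2 change was -0.23 ± 0.15 (SE), with a 95% interval from -0.55 to 0.09. The estimates of all 7 tested genes of the minus strand were negative, with a median of -0.20, and 11 of 19 on the plus strand were negative, with a median of -0.09.

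In CPM, the size of the rRNA changes in the CDS line rested largely on 1 library. mt-Rnr1, the small ribosomal subunit RNA, stood at 395, 282, 973 and 320 CPM in CDS knockouts and at 294, 335, 264 and 274 CPM in controls. mt-Rnr2, the large subunit RNA, stood at 898, 707, 1992 and 817 CPM in knockouts and at 717, 850, 731 and 796 CPM in controls. CDS knockout 3 was the high library for both. Their log2 changes were 0.76 ± 0.33 and 0.51 ± 0.26 (SE), and without CDS knockout 3 they were 0.19 ± 0.13 and 0.06 ± 0.07. In the same library ENSMUSG00000119584.1, a nuclear gene without a name in the tables used, stood at 32890 CPM, against 6342 to 6451 CPM in the other CDS knockouts and 2183 to 3879 CPM in CDS controls. Some cell markers were also at an extreme in CDS knockout 3. The 12 haemoglobin genes summed to 4388 CPM there, the highest of the 15 libraries, with CDS control 2 next at 4088 CPM. Tnnt2 and Actc1, at 3241 and 8926 CPM, were at their lowest in CDS knockout 3. Ttr, a choroid plexus and liver gene, was not at its extreme there. It stood at 13.8, 17.6, 104 and 154 CPM in the CDS knockouts, highest in CDS knockout 4, and at 35.2, 27.2, 11.2 and 26.6 CPM in CDS controls. The part of these in the rRNA values was not tested.

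**Figure D3:**
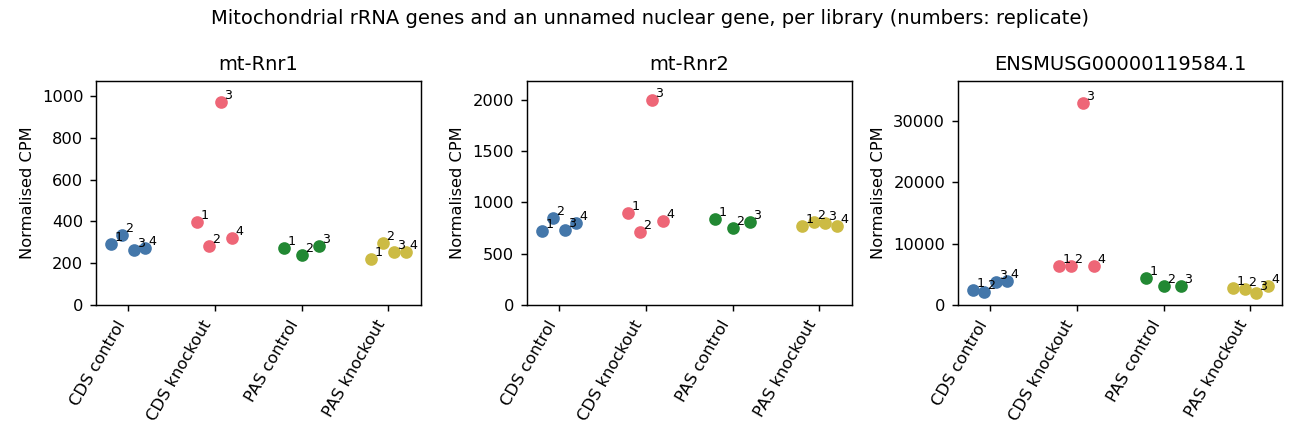
Normalised CPM of mt-Rnr1, mt-Rnr2 and ENSMUSG00000119584.1 in each library, with the replicate number beside each point. CDS knockout 3 stands at 973, 1992 and 32890 CPM, above every other library in each panel.

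Among the low genes inside the stretch, mt-Atp6, a subunit of the ATP synthase, stood at 1.09, 0.888, 1.04 and 0.703 CPM in CDS knockouts and at 1.40, 1.10, 1.36 and 1.19 CPM in controls. The groups did not overlap, which held for 1.32% of all genes tested in that direction, and no mitochondrial gene had all knockouts above all controls, against 1.48% of all genes. For mt-Atp6 the log2 change was -0.42 ± 0.20 (SE) with an adjusted p of 1.00 by edgeR's quasi-likelihood test. Its copy Gm10925 stood at 2.35 ± 0.413 CPM in knockouts and 3.02 ± 0.327 CPM in controls. These values rest on 22 to 55 counts per library for mt-Atp6.

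Among tRNA genes, mt-Tp stood at 37.6, 35.1, 36.3 and 30.8 CPM in CDS knockouts and at 39.8, 43.7, 36.3 and 36.1 CPM in controls. Its log2 change was -0.15 ± 0.10 (SE), and the groups overlapped. mt-Tn stood at 7.87, 3.55, 6.29 and 4.60 CPM in knockouts and at 6.12, 7.70, 5.96 and 4.44 CPM in controls. mt-Te, for glutamate, stood at 4.52, 2.83, 2.86 and 3.67 CPM in knockouts and at 3.16, 4.64, 4.17 and 4.05 CPM in controls. Both overlapped between groups. mt-Tp is the last annotated gene and has no gene on its far side, and mt-Tn lies beside a gap of 32 bases without a gene, while other gaps are 5 bases or less.

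Deletion of the Atf4 polyadenylation signal likewise gave no call. By edgeR's quasi-likelihood test 0 of 26 genes passed, against 0.00987% of all genes tested, and 2 of 26 had an unadjusted p under 0.05, against 5.24% of all genes. DESeq2 and limma-voom also called 0. Of the 7 protein genes outside or partly outside the stretch, 5 had positive and 2 negative estimates, from -0.02 to 0.10 on the log2 scale with SEs of 0.07 to 0.16.

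mt-Nd1 stood at 6062, 6989, 6205 and 6382 CPM in PAS knockouts and at 5154, 5970 and 6963 CPM in PAS controls. mt-Cytb stood at 6879, 7999, 6566 and 7783 CPM in knockouts and at 6016, 6740 and 8316 CPM in controls. mt-Co1 stood at 13190, 15150, 13790 and 14770 CPM in knockouts and at 12670, 12950 and 14940 CPM in controls. The controls spanned or overlapped the knockouts for each of these genes, and the log2 changes were 0.09 ± 0.07, 0.06 ± 0.10 and 0.07 ± 0.07 (SE). PAS control 1 was the lowest and PAS control 3 the highest control for 7 of these 7 protein genes, so the spread between controls was shared by the genes.

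mt-Nd6 stood at 1484, 1870, 1456 and 2068 CPM in PAS knockouts and at 1452, 1609 and 2155 CPM in controls, a log2 change of -0.02 ± 0.16 (SE). mt-Rnr1 stood at 219, 297, 256 and 253 CPM in knockouts and at 275, 240 and 281 CPM in controls. mt-Rnr2 stood at 766, 810, 798 and 772 CPM in knockouts and at 843, 746 and 809 CPM in controls. All 3 overlapped between groups, and the rRNA changes were -0.05 ± 0.36 and -0.02 ± 0.29 on the log2 scale, with SEs that take in the spread of the CDS knockouts.

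Of the 2 genes with a p under 0.05 before adjustment, mt-Atp8 had few counts. mt-Atp8, a small ATP synthase subunit inside the stretch, was given 4, 6, 8 and 12 counts by the PAS knockouts, against 3, 3 and 0 by the controls. mt-Tc, the tRNA for cysteine, stood at 4.23, 5.83, 6.14 and 4.17 CPM in knockouts and at 4.13, 3.93 and 2.67 CPM in controls. Its counts were 112, 164, 145 and 122 in knockouts and 112, 90 and 61 in controls. In CPM, knockouts lay above controls for both genes, as they did for 2.21% of all genes tested. For no mitochondrial gene did they lie below, against 2.38% of all genes. The adjusted p was 0.934 for each by edgeR's quasi-likelihood test. mt-Atp6 stood at 1.40, 1.14, 1.31 and 1.84 CPM in PAS knockouts and at 1.44, 1.53 and 1.89 CPM in controls, and overlapped.

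**Figure D4:**
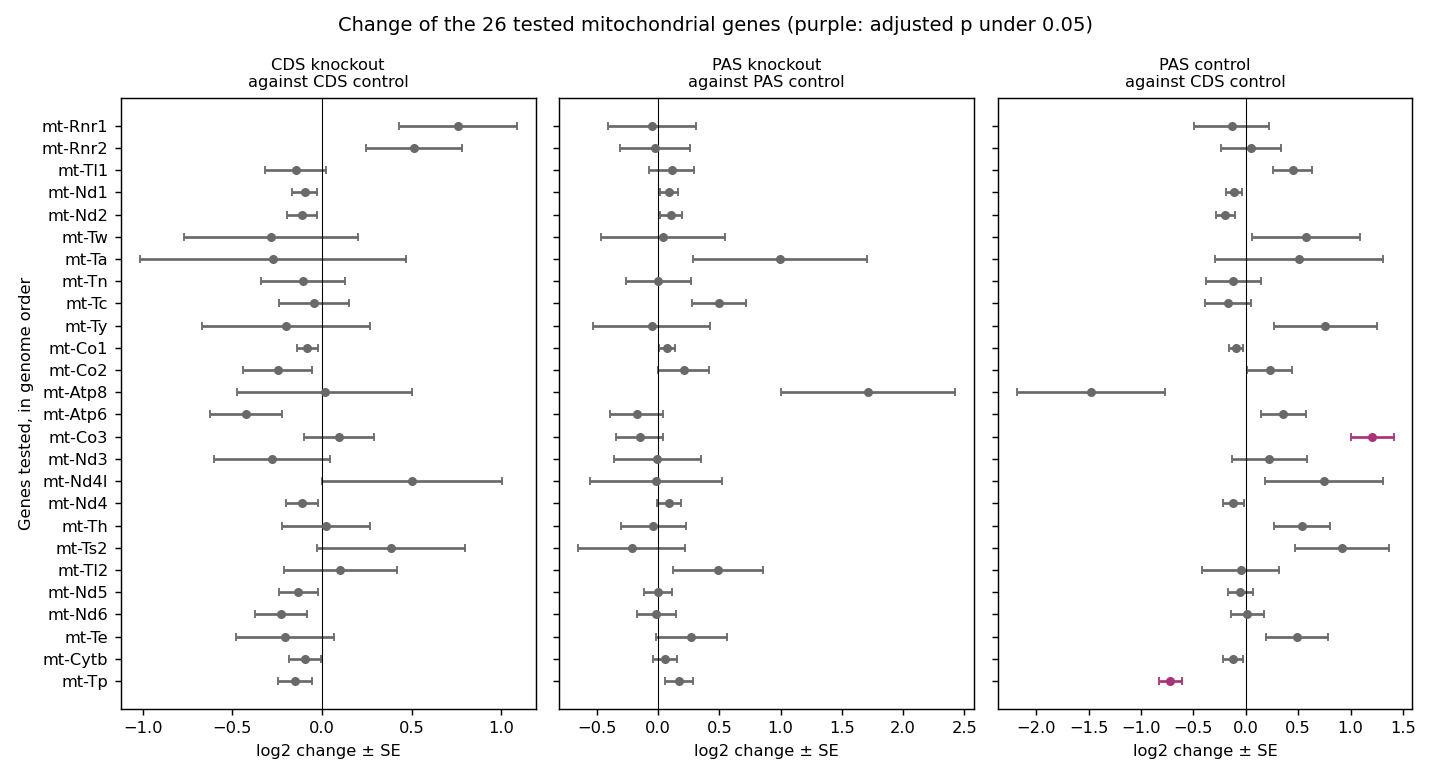
Log2 change ± SE of the 26 tested genes in genome order for both knockout comparisons and for the controls of the lines against each other, with adjusted p under 0.05 in purple. The protein genes with most counts lie between -0.23 and 0.10 in both knockout panels, and mt-Co3 and mt-Tp are coloured only in the panel of controls.

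The effects of the knockouts were compared directly between the lines. By edgeR's quasi-likelihood test of the difference 0 of 26 genes passed, against 0.00493% of all genes tested, and 1 of 26, mt-Tp, had an unadjusted p under 0.05, against 4.16% of all genes. DESeq2 and limma-voom also called 0. The difference, PAS effect minus CDS effect, was positive for 7 of the 7 protein genes outside or partly outside the stretch, from 0.13 to 0.21 on the log2 scale with SEs of 0.09 to 0.22. These 7 estimates come from the same libraries and are not independent. For mt-Tp it was 0.32 ± 0.15 (SE), with an adjusted p of 0.995 by edgeR's quasi-likelihood test.

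Between the controls of the lines, 2 of 26 mitochondrial genes passed edgeR's quasi-likelihood test, against 0.143% of all genes tested. Of these 1 was higher and 1 lower, against 0.0345% and 0.109% of all genes. Line, counting run and depth changed together here and cannot be told apart. mt-Tp, the proline tRNA gene, was lower in PAS controls, at 21.1, 24.1 and 25.6 CPM, than in CDS controls, at 39.8, 43.7, 36.3 and 36.1 CPM. The log2 change was -0.72 ± 0.11 (SE), with an adjusted p of 0.0081 by edgeR's quasi-likelihood test, and every PAS control was under every CDS control. The PAS knockouts, at 23.4, 23.1, 28.5 and 31.2 CPM, lay near their own controls. The call was lost without PAS control 1 (adjusted p = 0.0693 by edgeR) or PAS control 2 (adjusted p = 0.0505 by edgeR).

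mt-Co3, a cytochrome c oxidase subunit gene inside the stretch, was higher in PAS controls, at 2.73, 2.27 and 3.24 CPM, than in CDS controls, at 1.73, 0.971, 0.965 and 1.12 CPM. The log2 change was 1.21 ± 0.20 (SE), with an adjusted p of 0.0068 by edgeR's quasi-likelihood test, and the groups did not overlap. The knockouts stood at 2.23, 2.74, 2.29 and 2.63 CPM in the PAS line and at 1.37, 1.30, 1.29 and 1.09 CPM in the CDS line. All these values rest on 31 to 77 counts per library. Its identical copy Gm28437 stood at 4.62 ± 0.728 CPM in PAS controls (SD, n = 3) and 4.43 ± 0.240 CPM in CDS controls (SD, n = 4). The call was lost when only the compared groups were fitted (adjusted p = 0.117 by edgeR). All 11 genes inside the stretch together held 0.0186% ± 0.00237 of mitochondrial counts in PAS controls and 0.0121% ± 0.00148 in CDS controls (SD).

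**Figure D5:**
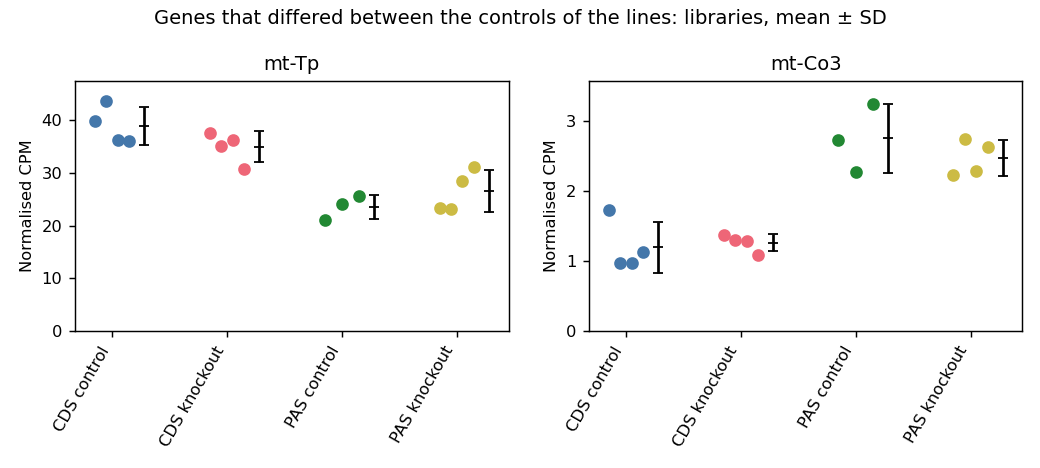
Normalised CPM of mt-Tp and mt-Co3 by group, with 1 point per library and bars for the mean ± SD. For mt-Tp the PAS controls lie at 21.1 to 25.6 CPM under the CDS controls at 36.1 to 43.7, and for mt-Co3 they lie above them.

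The groups of controls did not overlap for 5 genes that were higher in the PAS line, against 4.30% of all genes tested, and for 2 that were lower, against 5.16%. Besides the called genes these were mt-Atp6, mt-Tl1, mt-Ts2 and mt-Te higher and mt-Atp8 lower. mt-Te stood at 5.05, 5.55 and 6.36 CPM in PAS controls, above the CDS controls, with a log2 change of 0.49 ± 0.29 (SE). mt-Tn stood at 6.37, 4.94 and 5.26 CPM in PAS controls and overlapped, and its PAS knockouts stood at 4.00, 5.76, 6.94 and 5.53 CPM. mt-Te stood at 4.15, 8.96, 4.23 and 9.70 CPM in PAS knockouts, on both sides of its controls. The protein genes outside or partly outside the stretch overlapped between the controls of the lines, with 6 of 7 estimates negative, from -0.20 for mt-Nd2 to 0.02 for mt-Nd6.

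Nuclear genes that serve the mitochondrial genome were read beside it. None of the 14 genes of DNA replication and nucleoids, the 10 of transcription, the 24 of RNA processing, the 18 of RNA modification or the 12 regulators of biogenesis passed edgeR's test in any comparison, and DESeq2 and limma-voom also called 0. Of these 78 genes, 1 had an unadjusted p under 0.05 by edgeR in the CDS line, 3 in the PAS line, 2 for the difference and 6 between controls. Of all genes tested, 2.62%, 5.24%, 4.16% and 9.60% had one. The most abundant genes of each list are given by their log2 change and SE, first with loss of the coding exons and then with loss of the polyadenylation signal. Atad3a, a nucleoid-associated ATPase, stood at -0.04 ± 0.05 and -0.05 ± 0.05, and Polg, the mitochondrial DNA polymerase, at -0.02 ± 0.04 and -0.04 ± 0.05. Tfam, which packages and transcribes mitochondrial DNA, stood at -0.00 ± 0.04 and -0.02 ± 0.04, and Polrmt, the mitochondrial RNA polymerase, at -0.01 ± 0.06 and 0.11 ± 0.07. Lrpprc, which stabilises mitochondrial mRNAs, stood at -0.01 ± 0.04 and 0.03 ± 0.05, and Lonp1, a matrix protease, at -0.00 ± 0.04 and 0.02 ± 0.05. Trnt1, which adds CCA ends to tRNAs, stood at 0.00 ± 0.05 and 0.08 ± 0.06, and Trub2, a pseudouridine synthase family member, at -0.02 ± 0.05 and -0.03 ± 0.06. Yy1, a transcription factor, stood at -0.00 ± 0.04 and -0.00 ± 0.04, and Ppargc1a, a coactivator of mitochondrial biogenesis, at -0.05 ± 0.09 and 0.04 ± 0.09.

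The nuclear subunits of the same complexes had 0 calls in both knockout comparisons by edgeR's quasi-likelihood test, by DESeq2 and by limma-voom, and of 78 genes, complex II included, 4 and 2 had an unadjusted p under 0.05 by edgeR in the CDS and PAS lines, and 1 for the difference, where edgeR, DESeq2 and limma-voom also called 0. In the CDS line, 2 of 37 subunits of complex I and 2 of 14 of complex IV had an unadjusted p under 0.05, with medians of -0.04 and -0.05 on the log2 scale. Between the controls, 4 of 14 complex IV subunits were lower in the PAS line, 14 of 14 estimates were negative and the median was -0.23, against 0.109% of all genes called lower and a median of 0.00 over all genes. Cox8a changed by -0.32 ± 0.05, Cox5b by -0.25 ± 0.04, Ndufa4 by -0.27 ± 0.05 and Cox6a2 by -0.30 ± 0.06 (log2, SE). Of complex I 1 of 37 was called, Ndufb3 at -0.32 ± 0.05, and of complex III 1 of 9, Uqcrb at -0.27 ± 0.05, both lower. Complexes II and V had 0 calls among 4 and 14 tested by edgeR. The lower estimates were not confined to complex IV: 35 of 37 were negative in complex I (median -0.14), 4 of 4 in II (-0.11), 9 of 9 in III (-0.13) and 12 of 14 in V (-0.10). By edgeR 43 of the 78 had an unadjusted p under 0.05 (19, 2, 4, 11 and 7 in complexes I to V), against 9.60% of all genes. edgeR called 6 of the 78 (0.143% of all genes), DESeq2 14 (0.610% of the genes it gave an adjusted p) and limma-voom 6 (0.138%). Of the lists with no call, the complex II genes Sdha and Sdhd stood at -0.05 ± 0.04 and -0.03 ± 0.05 in the CDS line and -0.03 ± 0.04 and 0.03 ± 0.05 in the PAS line. The complex V genes Atp5a1 and Atp5b stood at -0.03 ± 0.05 each in the CDS line, and at 0.01 ± 0.05 and 0.01 ± 0.06 in the PAS line.

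Markers of the cell types in the ventricle were set beside these values, and 0 of 69 passed edgeR's test in any comparison. By edgeR 9 had an unadjusted p under 0.05 in the CDS line, 2 in the PAS line, 6 for the difference and 4 between controls, against the same shares of all genes as above. DESeq2 called 2 between controls, against 0.610% of all genes, and 0 elsewhere, and limma-voom called 0. The 10 cardiomyocyte markers summed to 34650 to 38740 CPM in CDS knockouts and 37620 to 41170 CPM in CDS controls, with 10 of 10 estimates negative, a median of -0.06 on the log2 scale and 3 at an unadjusted p under 0.05. Among them Actc1 stood at -0.13 ± 0.05 and Myh7, a myosin heavy chain, at -0.14 ± 0.06. They summed to 39340 to 39880 CPM in PAS knockouts and 38820 to 40350 CPM in PAS controls. The 10 endothelial markers summed to 1712 to 1820 CPM in CDS knockouts, under every CDS control at 1857 to 1936 CPM. Of these 8 of 10 estimates were negative, with a median of -0.10 and 4 at an unadjusted p under 0.05 by edgeR, and Npr3 and Eng stood at -0.11 ± 0.05 and -0.11 ± 0.06. In the PAS line they summed to 1791 to 1907 CPM in knockouts and 1658 to 1931 CPM in controls. The 8 cushion and mesenchymal markers summed to 2845 to 3419 CPM in CDS knockouts and 2582 to 3149 CPM in controls, with 7 of 8 estimates positive and a median of 0.18. Vcan and Col3a1, of the extracellular matrix, stood at 0.04 ± 0.13 and 0.06 ± 0.06, and 0 of 8 had an unadjusted p under 0.05 by edgeR. The 9 erythroid markers summed to 1613 to 4380 CPM and 1844 to 4038 CPM in CDS knockouts and controls, and to 1166 to 2301 CPM and 1328 to 3509 CPM in the PAS line. The 8 choroid plexus and liver markers summed to 39.0 to 242 CPM in CDS knockouts, 34.4 to 68.0 CPM in CDS controls and 15.3 to 28.1 CPM in the PAS line. In the CDS line the most abundant genes of the other marker lists stood, on the log2 scale, at -0.14 ± 0.41 (Hbb-y) and -0.08 ± 0.48 (Hba-x) for erythroid cells, 1.52 ± 0.67 (Ttr) and 0.11 ± 0.17 (Trf) for choroid plexus and liver, and -0.09 ± 0.17 (Upk3b) and -0.08 ± 0.04 (Tbx18) for the epicardium. They stood at 0.05 ± 0.15 (Myl7) and -0.07 ± 0.12 (Nppa) for the atrium, 0.04 ± 0.13 (Lyz2) and -0.08 ± 0.26 (Csf1r) for leukocytes, and 0.07 ± 0.06 (Gap43) and 0.80 ± 0.47 (Tubb3) for neurons. The part of these cells in the mitochondrial values was not tested.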

How the data were processed

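Ventricles of mouse embryos were profiled by RNA-seq. The deposited files hold raw counts per gene, whole numbers of read pairs. The authors made these counts with featureCounts 2.1.1, summing exons by gene of GENCODE release 37 (GRCm39), per the file headers. The headers name no strand, multi-mapping or multi-overlap option. The submitters' processing notes name HISAT2 2.2.1, STAR 2.7.11b, GRCm38 and GRCm39, and do not say which aligner made these counts. The lines were counted in separate runs. Names came from GENCODE release 21 for 51487 of 78317 genes, with 98.8% of counts.

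Genes were filtered with filterByExpr (minimum count 10), scaled by TMM factors (0.986 to 1.01) and tested with edgeR 4.0.16 (quasi-likelihood, robust, R 4.3.3), with 1 mean per group over 15 libraries and 11 residual degrees of freedom. The test was checked on simulated counts. SEs were taken from the log2 change and its F statistic, and 95% intervals from the t distribution. Levels are CPM or CPM per kilobase of gene length. Copies of mitochondrial genes were found with BLAST 2.17.0 on GENCODE transcripts (at least 90% identity over 100 bases). Alternatives were DESeq2 1.42.0, limma-voom (limma 3.58.1), other scalings, no filter, fits of the compared groups alone, a replicate block and leaving out libraries. A library size from 5 mitochondrial protein genes was added after seeing the data.

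All 37 genes are accounted for. Values in every library are given for the rRNA genes, the most abundant protein gene per length of each complex, mt-Nd6, the 3 tRNA genes with most counts and any gene called. Each gene list is represented by up to 4 called members and, if it had no call, by its 2 members of highest mean CPM. The members and lists were chosen with earlier results of these data known. Separate cultures or embryos are not named for each library, and p-values measure the spread between the libraries. Replicates of a group differed by more than counting noise in all pairs, with a chi-square per degree of freedom of at least 3.38.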

Additional observations from a re-analysis of the deposited data

Results flagged for a closer look

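In 69 groups of 4 libraries, 4 values stood apart from the rest of their group by the gap to the nearest library relative to the group's range (Dixon's criterion), and chance alone gives about 1 such group in 20. CDS knockout 3 was high for mt-Rnr1, at 972.5 CPM against 282.3 to 395.1 CPM in the other CDS knockouts. It was high for mt-Rnr2, at 1992 CPM against 706.9 to 898.1 CPM. The rRNA genes together took 0.2919% of its counts, against 0.09963% to 0.1297% in the others. CDS knockout 1 was high for the complex III gene mt-Cytb, at 0.7713% of all counts against 0.6913% to 0.7008%. In CPM, at 7691 against 6863 to 7117 in the other CDS knockouts, mt-Cytb was not flagged.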

How the results depend on the processing

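The count of 0 called mitochondrial genes held in both knockout comparisons and in the difference between them under every alternative run. Between the controls, the count of 2 fell to 1 when only the compared groups were fitted and under the replicate block, and ranged from 1 to 2 as libraries were left out, with 1 without PAS control 1 and without PAS control 2. The share difference between the controls, -0.267 percentage points, ran from -0.590 (without PAS control 3) to -0.0307. Replicate numbers did not pair the libraries: same-numbered libraries correlated at -0.203 to 0.0636 in their deviations, and under the block the log2 change of mt-Tp was -0.73 with an adjusted p of 0.0737 by edgeR. The cause of these changes was not tested.

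Signs changed for some estimates, none of them called, and the cause was not tested. As libraries were left out, the log2 change of mt-Tn ranged from -0.3277 to 0.0634 (CDS line), -0.1175 to 0.1293 (PAS line), -0.0616 to 0.3295 (difference of effects) and -0.2519 to 0.0202 (controls). In the PAS line it ranged from -0.1329 to 0.0172 for mt-Rnr1, -0.0699 to 0.0177 for mt-Rnr2, -0.0121 to 0.2052 for mt-Nd1, -0.0426 to 0.1966 for mt-Cytb and -0.1295 to 0.1688 for mt-Nd6, and between the controls from -0.1694 to 0.1288 for mt-Nd6. With the library size of all mitochondrial counts, the log2 change was 0.0026 for mt-Co1 (CDS line), -0.0011 for mt-Cytb and -0.0799 for mt-Tn (PAS line), -0.0423 for mt-Tn (difference of effects), and 0.016 for mt-Co1 and 0.0059 for mt-Tn (controls). With the library size of 5 mitochondrial protein genes, chosen after seeing the data, it was 0.0176 for mt-Nd1, 0.0355 for mt-Co1 and 0.0221 for mt-Cytb (CDS line), -0.0814 for mt-Tn (PAS line), -0.0261 for mt-Co1, -0.0199 for mt-Cytb and -0.0764 for mt-Tn (difference), and 0.0304 for mt-Co1 and 0.0241 for mt-Tn (controls). These scalings measure change relative to other mitochondrial RNA. The block gave 0.0259 for mt-Rnr1 and 0.0156 for mt-Rnr2 (PAS line), limma-voom -0.0275 for mt-Tn (PAS line) and -0.0059 for mt-Nd6 (controls), and no filter -0.0052 for mt-Nd6 (controls).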
